A study of Mus musculus with 51 samples.

Results

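The genes that place methyl groups on lysine 27 and lysine 9 of histone H3 were followed in mouse femurs, in animals deprived of vitamin C (VitC) and in animals lacking the DNA demethylases Tet1 and Tet2 in limb mesenchyme. The set was chosen by name and holds 10 genes, Ezh1, Ezh2, Eed, Suz12, Suv39h1, Suv39h2, Setdb1, Ehmt1, Ehmt2 and Trim28. All 10 were found among the 23358 entries of the VitC experiment and among the 25938 of the Tet experiment, and all passed the filter on low values in both.

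Ezh2 and its paralogue Ezh1 are alternative catalytic subunits of Polycomb repressive complex 2 (PRC2), which trimethylates H3 lysine 27 (H3K27me3) at silenced developmental genes. Ezh2 needs the core subunits Eed and Suz12 and is the form typical of dividing cells, whereas Ezh1 is the form that resting, differentiated cells retain. Suv39h1 and Suv39h2 place H3K9me3 on constitutive heterochromatin, Setdb1 places it on retrotransposons and silenced genes once Trim28 has recruited it, and the heterodimer of Ehmt1 (GLP) and Ehmt2 (G9a) places H3K9me1 and H3K9me2 in euchromatin. VitC is a cofactor of the enzymes that remove these marks and of the Tet enzymes, which turn 5-methylcytosine into 5-hydroxymethylcytosine (5hmC).

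Flushed and minced femurs of 9 mice made up the VitC experiment, with 3 libraries in each group, all labelled C57BL/6 and taken at 20 weeks of age. WT mice make their own VitC. Mice homozygous for Gulo tm1Mae (Gulo-/-) cannot, and were given VitC at 3.3 g/L in their drinking water either to the end (VitC+) or until week 15 and then none for 5 weeks (VitC+/-). In the Tet experiment 12 mice of 11 weeks, labelled C57BL/6, were compared: Ctrl mice with wild-type Tet alleles, and mice with floxed Tet1 (Tet1 cKO), floxed Tet2 (Tet2 cKO) or both (Tet1/2 cKO), 3 each. Every mouse of that experiment, Ctrl included, carried Prrx1-Cre, which is active in limb mesenchyme, so blood cells of the femur kept their Tet alleles. 5hmC peak lists came from femurs of both experiments, and lists of 5hmC, H3K27me3 and H3K9me3 peaks from MC3T3-E1, a line of mouse calvarial pre-osteoblasts grown with VitC at 50 µg/ml or without it.

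The VitC libraries were worth 31200000 to 47600000 reads, except WT 1 with 7600000, and the Tet libraries 28600000 to 49800000 reads. Gulo, scaled as described below, stood at 0.54 and 0.44 RPKM in the libraries labelled WT 1 and WT 2 but at 0.00 in the library labelled WT 3, and at 0.24 in the library labelled VitC+ 1 against 0.01 to 0.03 in the other 5 Gulo-/- libraries. The libraries labelled WT 3 and VitC+ 1 therefore did not match the level of their groups, and results are also given without them. In the Tet experiment only single exons were floxed, so the whole-gene values of Tet1 (374 to 435 normalized counts in Ctrl, 415 to 485 in Tet1/2 cKO) and Tet2 could not check the labels. Defining markers of the bone lineage were present in every library, as were those of neutrophils, and in bulk tissue fewer cells of a type and less RNA per cell cannot be told apart.

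The promoters of Ezh2, Suz12 and Ezh1 are shown first because these PRC2 genes, which share a complex, differ in sequence at their starts as well as in level. Each runs 5′ to 3′ on the gene's strand from 250 bases before to 50 after the RefSeq start (GRCm38.p6, the build the files name mm10), and capitals mark an E2F motif, the letters bound by the E2F regulators of the cell cycle. Ezh2 lies at chr6:47594981-47595280 (minus strand), Suz12 at chr11:79992856-79993155 (plus strand) and Ezh1 at chr11:101226414-101226713 (minus strand).
Ezh2 promoter: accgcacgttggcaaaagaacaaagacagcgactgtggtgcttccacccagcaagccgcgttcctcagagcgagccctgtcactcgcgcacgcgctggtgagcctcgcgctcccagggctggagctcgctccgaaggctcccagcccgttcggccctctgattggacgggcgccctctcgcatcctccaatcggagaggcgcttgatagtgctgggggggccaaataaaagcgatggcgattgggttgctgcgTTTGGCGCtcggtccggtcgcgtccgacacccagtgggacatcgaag
Suz12 promoter: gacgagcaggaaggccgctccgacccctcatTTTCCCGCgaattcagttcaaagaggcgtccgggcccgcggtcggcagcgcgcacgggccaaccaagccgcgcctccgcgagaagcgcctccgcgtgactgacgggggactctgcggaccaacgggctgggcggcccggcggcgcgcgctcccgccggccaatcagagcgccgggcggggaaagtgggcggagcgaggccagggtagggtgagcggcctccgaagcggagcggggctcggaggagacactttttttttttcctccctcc
Ezh1 promoter: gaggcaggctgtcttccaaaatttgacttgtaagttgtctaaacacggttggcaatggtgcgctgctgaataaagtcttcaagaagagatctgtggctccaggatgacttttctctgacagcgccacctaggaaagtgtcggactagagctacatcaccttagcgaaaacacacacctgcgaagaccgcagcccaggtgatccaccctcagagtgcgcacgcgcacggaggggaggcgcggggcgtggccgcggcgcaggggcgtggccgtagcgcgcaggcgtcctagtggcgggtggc

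The E2F letters TTTCCCGC, TTTGGCGC, TTTCGCGC and TTTGCCGC were searched on both strands and occurred in 742 of 32817 RefSeq mouse promoters of this length (2.26%). Ezh2 held TTTGGCGC at position 4 after the start and Suz12 held TTTCCCGC at position -219. An alternative promoter of Suv39h1 held the reverse complement at -64. No other member held these letters in this window. The CCAAT box, searched as CCAAT on both strands and present in 37.4% of promoters, occurred 3 times in Ezh2. It also occurred 2 times in Suv39h1 and 1 time each in Eed, Suz12 and Setdb1. Suv39h2 held the ATF/CREB letters TGACGTCA at -85, found in 1.79% of promoters. CG dinucleotides numbered 31 in Ezh2, 41 in Suz12 and 23 in Ezh1, against a median of 7 over all promoters.

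A stretch of the Ezh2 gene body is shown because a 5hmC peak of Ctrl femurs lay there that no peak of Tet1/2 cKO femurs overlapped. The peak, at chr6:47576302-47577854, was 1553 bases long, with a fold enrichment of 5.93 and a -log10 q of 32.8, and its centre lay 18192 bases from the outermost RefSeq start. The 300 bases around its summit, chr6:47577408-47577707 on the minus strand, are shown, and their 7 CG dinucleotides, the places where cytosine can be methylated, are in capitals. The summit falls within an exon (chr6:47577544-47577667), and 11 of the 16 RefSeq coding sequences of Ezh2 begin within these bases.
Ezh2 5hmC peak: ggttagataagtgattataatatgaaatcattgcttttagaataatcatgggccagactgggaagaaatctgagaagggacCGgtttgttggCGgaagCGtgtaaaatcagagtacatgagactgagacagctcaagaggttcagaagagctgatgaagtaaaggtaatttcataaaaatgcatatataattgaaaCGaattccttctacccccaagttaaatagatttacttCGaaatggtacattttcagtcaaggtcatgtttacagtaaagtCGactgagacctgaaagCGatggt

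Levels were compared between genes only per length, as RPKM, which divide the reads of a gene by its length and by the depth, after scaling the libraries to each other by their median ratio over genes. In WT femurs Trim28 was the highest member, at 47.6 ± 4.43 scaled RPKM (mean ± SD, n = 3 here and throughout), and its range lay above that of Ezh2 at 32.8 ± 3.90. Ehmt2 (27.3 ± 3.35), Suz12 (25.4 ± 6.03), Eed (19.8 ± 1.80) and Suv39h1 (18.9 ± 2.31) followed, each overlapping the next. Setdb1 (9.52 ± 0.669), Ehmt1 (7.68 ± 1.81) and Ezh1 (7.04 ± 0.541) formed a lower tier, clear of Suv39h1 above and overlapping their neighbours within it. Suv39h2 was last at 1.94 ± 0.863. Trim28 was highest and Suv39h2 lowest in VitC+ and VitC+/- femurs as well. Ezh2 ranked 2 of 10 in WT, 3 in VitC+ and 6 in VitC+/- femurs, where its range lay below that of Eed and overlapped that of Setdb1. Suv39h1 ranked 6 in WT and VitC+ and 4 in VitC+/-, where it overlapped Eed, and Ehmt1 and Ezh1, which overlapped in WT, VitC+ and VitC+/-, changed places between WT and VitC+.

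**Figure D1:**
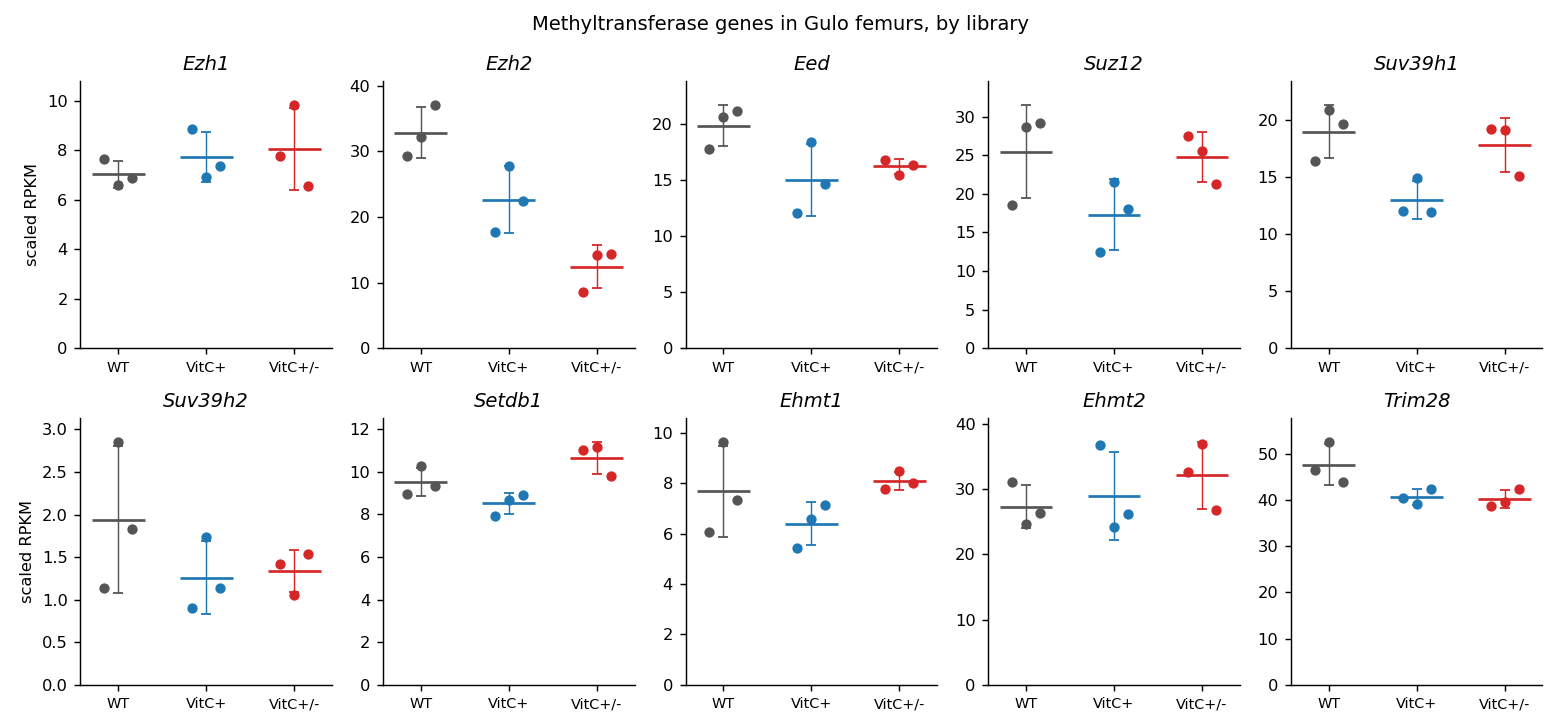
Scaled RPKM of the 10 genes in each of the 9 femur libraries of the VitC experiment; points are libraries, horizontal bars group means and whiskers 1 SD. The 3 VitC+/- libraries sit between 8.63 and 14.3 for Ezh2, below every VitC+ and WT library, while the Trim28 means are 40.59 in VitC+ and 40.23 in VitC+/-.

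Withdrawal of VitC was tested first, as VitC+/- against VitC+ femurs, which share the Gulo genotype. Ezh2 (chr6:47530274-47595030), the catalytic subunit of PRC2 in dividing cells, was the 1 member of 10 that changed. It stood at 17.8, 27.9 and 22.4 scaled RPKM in VitC+ libraries 1 to 3 and at 8.63, 14.2 and 14.3 in VitC+/- libraries 1 to 3. All VitC+/- libraries were below all VitC+ libraries, VitC+/- 1 being the lowest. Ezh2 fell by 0.86 (SE 0.23) on the log2(scaled RPKM + 0.5) scale, to 0.552 of its VitC+ level, with a 95% interval of -1.37 to -0.35 (limma, adjusted p = 0.0389 over 12586 genes). The same test called 7.52% of all genes lower and 13.4% in either direction, and 7.46% of genes had a difference as low as that of Ezh2 or lower.

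The call on Ezh2 depended on which libraries entered. Without the library labelled VitC+ 1 the difference was -1.02, and with WT 3 also left out it was again -1.02 but the adjusted p of limma was 0.0842. Leaving out VitC+ 2 gave -0.70 with an adjusted p of 0.131, leaving out VitC+ 3 gave -0.85 (0.105), and leaving out VitC+/- 1 gave -0.63 (0.12).

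The partners of Ezh2 did not pass the test. Suz12 stood at 12.4, 21.5 and 18.0 scaled RPKM in VitC+ and at 27.5, 25.6 and 21.2 in VitC+/- libraries 1 to 3. Eed, which binds H3K27me3 and holds the complex to it, stood at 12.03, 18.4 and 14.6 in VitC+ and at 16.8, 15.4 and 16.3 in VitC+/-. The groups overlapped for both, with log2 differences of 0.53 (95% interval -0.00 to 1.06, adjusted p = 0.161, limma) for Suz12 and 0.13 (-0.24 to 0.49, adjusted p = 0.64) for Eed. Ezh1 stood at 8.87, 6.92 and 7.38 in VitC+ and at 7.78, 9.82 and 6.55 in VitC+/-, a log2 difference of 0.05 (-0.34 to 0.43).

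Of the H3K9 enzymes, 3 had groups that did not overlap, all with VitC+/- above VitC+. Suv39h1 stood at 12.02, 14.9 and 11.9 scaled RPKM in VitC+ and at 19.2, 19.1 and 15.0 in VitC+/-, a log2 difference of 0.44 (0.09 to 0.80, adjusted p = 0.0923, limma). Setdb1 stood at 7.93, 8.67 and 8.91 against 11.0, 11.1 and 9.79, a difference of 0.31 (0.02 to 0.59, adjusted p = 0.133). Ehmt1 stood at 5.45, 6.60 and 7.16 against 7.79, 8.47 and 8.02, a difference of 0.32 (-0.08 to 0.73, adjusted p = 0.258). None of these passed, and 21.4% of all genes had VitC+/- above VitC+ without overlap. With Ezh2 counted in, 4 of 10 members had groups that did not overlap, against 40.5% of all genes.

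The remaining members overlapped. Suv39h2, the low paralogue of Suv39h1, stood at 0.90 to 1.73 scaled RPKM in VitC+ and 1.06 to 1.53 in VitC+/-. Ehmt2 stood at 24.2 to 36.7 and 26.7 to 37.0, and Trim28 at 39.0 to 42.3 and 38.7 to 42.4. Their log2 differences were 0.08 (-0.58 to 0.74), 0.16 (-0.27 to 0.58) and -0.01 (-0.28 to 0.25), so the interval for Trim28 was the narrowest of the 10. The median over the 10 members was 0.14, against 0.02 over all genes.

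Against WT, the second question was whether deprived femurs differed from animals that make VitC. Ezh2 stood at 29.3, 32.1 and 37.0 scaled RPKM in the libraries labelled WT 1 to 3, all above the VitC+/- libraries. It fell by 1.399 (SE 0.23, 95% interval -1.91 to -0.89) on the log2 scale, to 0.379 of the WT level (limma, adjusted p = 0.0027). The test called 15.9% of all genes lower, 31.3% in either direction, and Ezh2 alone of the members. Without the libraries labelled WT 3 and VitC+ 1 the difference was -1.31 and still passed (adjusted p = 0.0243).

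Eed and Trim28 were the other members whose VitC+/- libraries lay below all WT libraries, as did 21.3% of all genes. Eed stood at 17.8, 20.6 and 21.1 scaled RPKM in WT, a log2 difference of -0.28 (-0.65 to 0.08, adjusted p = 0.211, limma). Trim28, the corepressor that brings Setdb1 to its targets, stood at 46.4, 52.5 and 43.9 in WT, a difference of -0.24 (-0.50 to 0.03, adjusted p = 0.154). Suz12 (18.5, 28.6 and 29.2 in WT) and Suv39h1 (16.4, 20.8 and 19.6) were near their VitC+/- levels, with differences of -0.02 (-0.55 to 0.52) and -0.09 (-0.45 to 0.27). For Setdb1, Ehmt1, Ehmt2, Ezh1 and Suv39h2 the adjusted p lay between 0.381 and 0.725. The median over the members was -0.05, against 0.01 over all genes.

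WT and VitC+ femurs, which both had VitC but differ in Gulo, were compared to show the range between VitC-replete groups. No gene of 12586 was called by limma, although 2769 (22%) had an unadjusted p under 0.05, and 4 members were among those. They were Suv39h1 (WT minus VitC+ on the log2 scale 0.53, 0.17 to 0.89), Suz12 (0.55, 0.02 to 1.08), Ezh2 (0.54, 0.03 to 1.05) and Eed (0.41, 0.04 to 0.77). Ezh2, Suv39h1, Setdb1 and Trim28 had every WT library above every VitC+ library, as had 14.2% of all genes. The median difference over the members was 0.32, against 0.04 over all genes, and 0.22 without the libraries labelled WT 3 and VitC+ 1. Without those libraries 0 members and 906 of 12467 genes had an unadjusted p under 0.05 (limma). VitC+ 1 was the lowest of the 9 libraries for Eed, Suz12, Suv39h2, Setdb1 and Ehmt1. It also had the smallest scaling factor, 0.757 against 0.971 to 1.101 in the others.

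**Figure D2:**
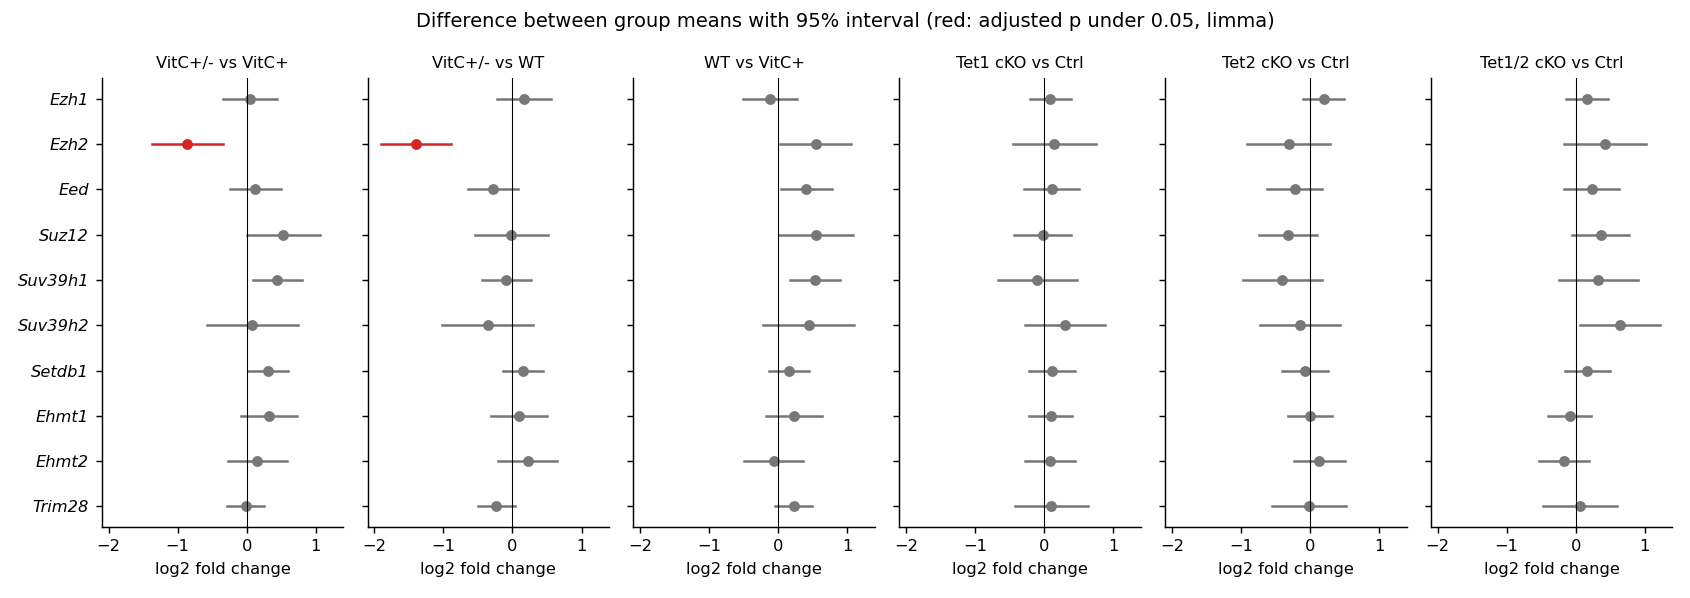
Log2 fold changes of the 10 genes in 6 comparisons, the first group minus the second; points are differences of group means, lines their 95% intervals, and red marks an adjusted p under 0.05 by limma. Ezh2 is red in both comparisons of VitC+/- femurs, at -0.86 and -1.399, and no other point is red.

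The balance between subunits was read as a ratio within each library, which no scaling between libraries can move. Ezh2 over Suz12 was 1.43, 1.30 and 1.24 in VitC+ libraries 1 to 3, 1.59, 1.12 and 1.27 in those labelled WT and 0.314, 0.556 and 0.676 in VitC+/-. All VitC+/- libraries lay under all others, by -1.43 on the log2 scale against VitC+ (0.371-fold) and by -1.42 against WT. The ratio did not separate WT from VitC+, where the difference was -0.01 (exact permutation p = 1). Ezh2 over Eed was 0.513 to 0.921 in VitC+/-, 1.48 to 1.53 in VitC+ and 1.56 to 1.75 in WT, differences of -1.02 and -1.15. The ratios to Suz12 and Eed were chosen after their values had been seen.

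Ezh2 over Ezh1, the pair of catalytic subunits, was 1.11, 1.45 and 2.19 in VitC+/- libraries 1 to 3. It was 2.004, 4.03 and 3.03 in VitC+ and 3.84, 4.88 and 5.39 in the libraries labelled WT. VitC+/- lay below WT without overlap (-1.61) and overlapped VitC+ (-0.93). A 2-sided exact permutation test of 3 against 3 cannot go below p = 0.1, which the comparisons without overlap reached; over the 30 ratio tests made the adjusted value was 0.375. Suv39h1 over Suv39h2 (9.80 to 18.1 in VitC+/-, 8.57 to 13.4 in VitC+) and Ehmt1 over Ehmt2 (0.229 to 0.300 and 0.148 to 0.274) overlapped between the VitC groups.

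**Figure D3:**
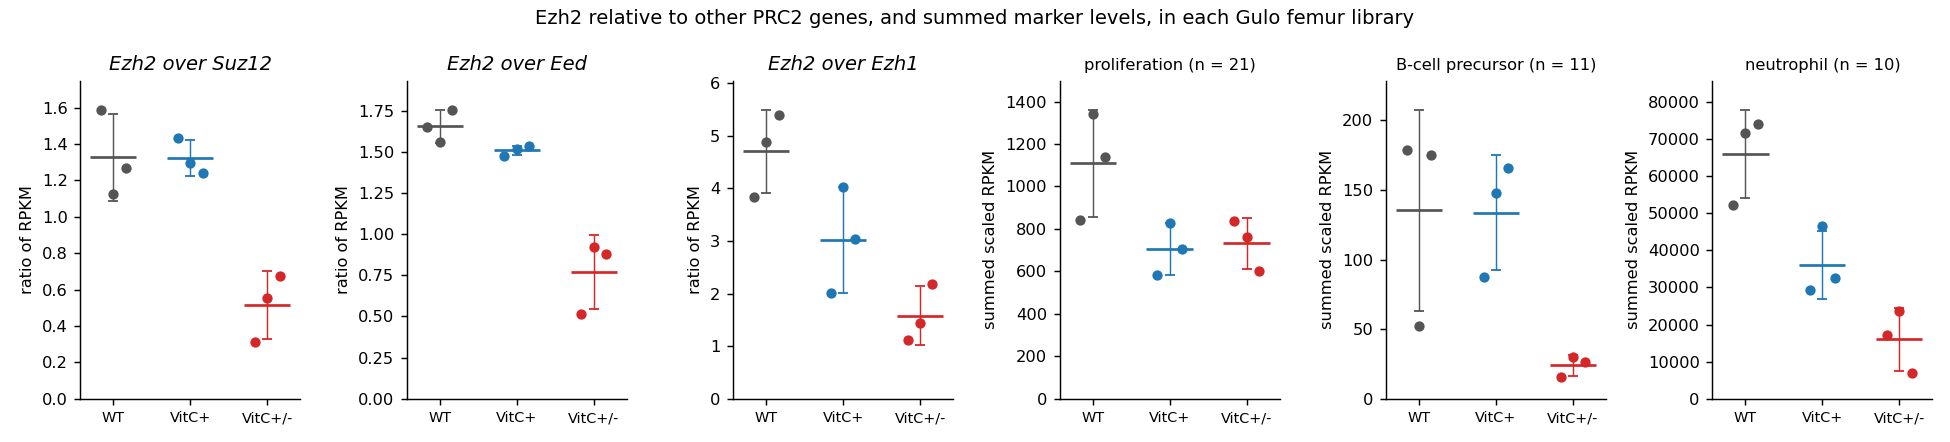
Ratios of Ezh2 to Suz12, Eed and Ezh1, and summed scaled RPKM of 3 marker lists, in each of the 9 libraries of the VitC experiment; points are libraries, bars group means and whiskers 1 SD. VitC+/- lies below the other groups for Ezh2 over Suz12 (at most 0.676), for the B-cell precursor sum (at most 29.9) and for the neutrophil sum, but overlaps VitC+ for the proliferation sum.

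Ezh2 is abundant in dividing cells, so 21 proliferation genes and markers of other cells of the femur were set beside it. Summed proliferation genes stood at 601 to 838 scaled RPKM in VitC+/- and 581 to 826 in VitC+. Of the 21, none fell and E2f2, an activating E2F, rose by 0.86 on the log2 scale (limma, adjusted p = 0.0473); their median difference was -0.00. Against WT (843 to 1343) 10 of 21 fell, with a median of -0.65, among them the topoisomerase Top2a (-1.08) and the replicative helicase subunits Mcm5 (-0.87), Mcm2 (-0.80) and Mcm3 (-0.78).

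B-cell precursor markers were lower in VitC+/- femurs, as Ezh2 was. Their sum was 15.9 to 29.9 scaled RPKM in VitC+/-, 87.6 to 166 in VitC+ and 52.2 to 179 in WT. Of 10 tested, 9 fell against VitC+ and 9 against WT (limma), led by the surrogate light chain genes Vpreb3 (-4.25 and -3.87), Igll1 (-3.83 and -3.12) and Vpreb1 (-3.75 and -3.27) and by the B-lineage factor Pax5 (-2.66 and -2.50). In VitC+/- 1, the library lowest in Ezh2, 1 of the 11 markers was at 0. Neutrophil markers fell too, 2 of 10 against VitC+ and 10 of 10 against WT, with sums of 7077 to 23734, 29224 to 46488 and 52293 to 73964 in VitC+/-, VitC+ and WT. In the library labelled WT 2 the B-cell precursor sum was 52.2 and Ezh2 32.1. For WT minus VitC+ the median log2 difference of the B-cell precursor markers was -0.23, beside 0.54 for Ezh2. For Tet1/2 cKO against Ctrl it was -0.36, beside 0.42 for Ezh2. None of these markers was called by limma in those comparisons. The part of these cells in the Ezh2 result was not tested.

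The other cell markers moved in several directions. Against VitC+, 6 of 13 osteoblast and osteocyte genes fell, and 2 of 8 osteoclast genes, 1 of 8 erythroid genes and 1 of 8 adipocyte genes tested rose. Against WT, 2 osteoblast and osteocyte genes fell and 1 rose, and 6 of 8 osteoclast, 2 of 8 erythroid and 6 of 8 adipocyte genes rose. Over all genes limma called 5.93% higher and 7.52% lower against VitC+, and 15.3% and 15.9% against WT. The erythroid and adipocyte counts of called genes against VitC+ thus lay near the background, as did the osteoblast and erythroid counts against WT. All 8 erythroid genes tested still lay above 0 in both comparisons, with median log2 differences of 0.64 and 0.69. With limma, 5 reached an unadjusted p under 0.05 against VitC+ (31.3% of all genes). Against WT 7 did (5514 of 12586 genes). Erythroid sums were 352 to 475 scaled RPKM in VitC+/-, 223 to 300 in VitC+ and 201 to 302 in WT. None of 8 skeletal muscle genes was called in either comparison (limma; 0 with an unadjusted p under 0.05), though their sums ran from 6.22 to 370 in VitC+/- and from 22.4 to 1225 in VitC+. Their part in the levels of the members was not tested.

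Other genes of the same pathways were counted by list. None of 7 PRC2 partners and none of 19 PRC1 genes passed against VitC+ (limma; 0 and 3 with an unadjusted p under 0.05), with median log2 differences of -0.08 and 0.19. Against WT the histone-binding subunit Rbbp4 was the 1 PRC2 partner to fall, by 0.55 (limma, adjusted p = 0.0159). PRC1, which ubiquitinates H2A and includes readers of H3K27me3, had 4 genes higher against WT, namely Pcgf2 (1.71), Phc1 (0.61), Bmi1 (0.61) and Phc2 (0.61). Over all genes limma called 15.3% higher against WT and 5.93% higher against VitC+, so 4 of 19 lay near the background.

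Among 11 tested partners and readers of H3K9 methylation, 2 rose against VitC+ (5.93% of all genes) and 2 against WT (15.3%, so the count against WT lay near the background). The HUSH-associated ATPase gene Morc2a rose in both (0.69 and 0.93), the methyltransferase gene Setdb2 against VitC+ (0.62) and the Ehmt partner Wiz against WT (0.61). Of 9 tested demethylases, which take off the marks the members place, 3 rose in each comparison, beside the same 5.93% and 15.3% of all genes. The H3K9 demethylase Kdm3a rose by 0.97 and 1.16 on the log2 scale, from 7.74 scaled RPKM in VitC+ and 6.69 in WT to 15.6 in VitC+/-. Kdm4b rose by 0.71 and 1.04, the H3K27 demethylase Kdm6a by 0.72 against VitC+, and Kdm4a by 0.45 against WT. Of the 132 genes of all pathway and marker lists tested, limma called none between WT and VitC+, where 49 had an unadjusted p under 0.05. They included 13 of 13 osteoblast and osteocyte and 6 of 8 osteoclast genes, with median log2 differences (WT minus VitC+) of -1.72 and -1.39. Among them were also 17 of 21 proliferation and 5 of 10 neutrophil genes (0.66 and 0.89). Every other list held 4 or fewer. Osteoblast and osteocyte sums were 1041 to 3935 scaled RPKM in WT, 5465 to 10424 in VitC+ and 710 to 4502 in VitC+/-. The part of these cells in the members' levels was not tested.

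Loss of Tet1, Tet2 or both was tested against Ctrl on counts that the authors had normalized for depth but not for gene length, so levels are compared within a gene only. No member changed in any of the 3 comparisons by limma, edgeR or DESeq2. An unadjusted p under 0.05 was reached by none in Tet1 cKO (2.28% of all genes with limma) and Tet2 cKO (2.19%) with any of the 3 tools, and in Tet1/2 cKO by 1 member with limma, none with edgeR and 1 with DESeq2. Over 16780 genes limma called 2 (0.0119%) in Tet1 cKO, 2 (0.0119%) in Tet2 cKO and 0 (0%) in Tet1/2 cKO, where 847 (5.05%) had an unadjusted p under 0.05. edgeR called 0, 1 (0.00583%) and 0 genes and DESeq2 13 (0.0717%), 14 (0.0684%) and 13 (0.075%).

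Tet1/2 cKO held the only members whose libraries separated from Ctrl. Suv39h2 stood at 401, 482 and 258 normalized counts in Ctrl libraries 1 to 3 and at 598, 533 and 588 in Tet1/2 cKO, a log2 difference of 0.64 (SE 0.26, 0.06 to 1.22, adjusted p = 0.723, limma). Ezh2 stood at 5265, 4775 and 4750 in Ctrl and at 6070, 7378 and 6407, a difference of 0.42 (-0.18 to 1.02). Suz12 stood at 5973, 6630 and 6663 in Ctrl and at 10029, 6992 and 7961, a difference of 0.36 (-0.06 to 0.78). These 3 were higher without overlap, as were 7.37% of all genes, and Ehmt2 was lower without overlap (3843, 3724 and 3625 against 3153, 3497 and 3287, difference -0.17), as were 10% of all genes. Summed proliferation genes stood at 154992 to 272366 normalized counts in Ctrl and 269344 to 298238 in Tet1/2 cKO, and summed neutrophil markers at 805499 to 1215109 and 1132924 to 2593449. Osteoblast and osteocyte sums did not overlap, at 993849 to 1284472 in Ctrl and 313527 to 687896 in Tet1/2 cKO, nor did adipocyte sums, at 10852 to 13595 and 3852 to 9026. B-cell precursor, erythroid, osteoclast and skeletal muscle sums overlapped, and the part of these cells in the members' values was not tested. The median difference of the members was 0.20, against -0.01 over all genes.

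In Tet1 cKO and Tet2 cKO every member overlapped Ctrl, where 7.82% and 5.97% of all genes did not. Ezh2 stood at 4731, 6397 and 5387 normalized counts in Tet1 cKO and at 2348, 5536 and 4855 in Tet2 cKO. Tet2 cKO 1 was the lowest of the 12 libraries for Ezh2, Eed (1446), Suz12 (4293), Suv39h1 (1430), Setdb1 (2450) and Trim28 (5979), and the highest for Ezh1 (3268). That library also had the highest summed skeletal muscle markers (1426538 normalized counts) and the lowest summed proliferation genes (87564), whose part in its levels was not tested. Medians over the members were 0.10 in Tet1 cKO and -0.11 in Tet2 cKO.

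Ezh2 over Ezh1, as a ratio of normalized counts and so not of levels, was 2.25 to 2.70 in Tet1/2 cKO and 1.96 to 2.10 in Ctrl, a log2 difference of 0.26 without overlap (exact permutation p = 0.1). It was 0.718 in Tet2 cKO 1. Ezh2 over Suz12 and Ezh2 over Eed, the ratios that separated VitC+/- from VitC+, overlapped Ctrl in all 3 knockouts, with differences between 0.01 and 0.17 for Suz12 and of 0.04, -0.09 and 0.19 for Eed in Tet1, Tet2 and Tet1/2 cKO. Of 136 genes of the pathway and marker lists, limma, edgeR and DESeq2 called 0 in every Tet comparison, and 0, 0 and 15 had an unadjusted p under 0.05 with limma in Tet1, Tet2 and Tet1/2 cKO.

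**Figure D4:**
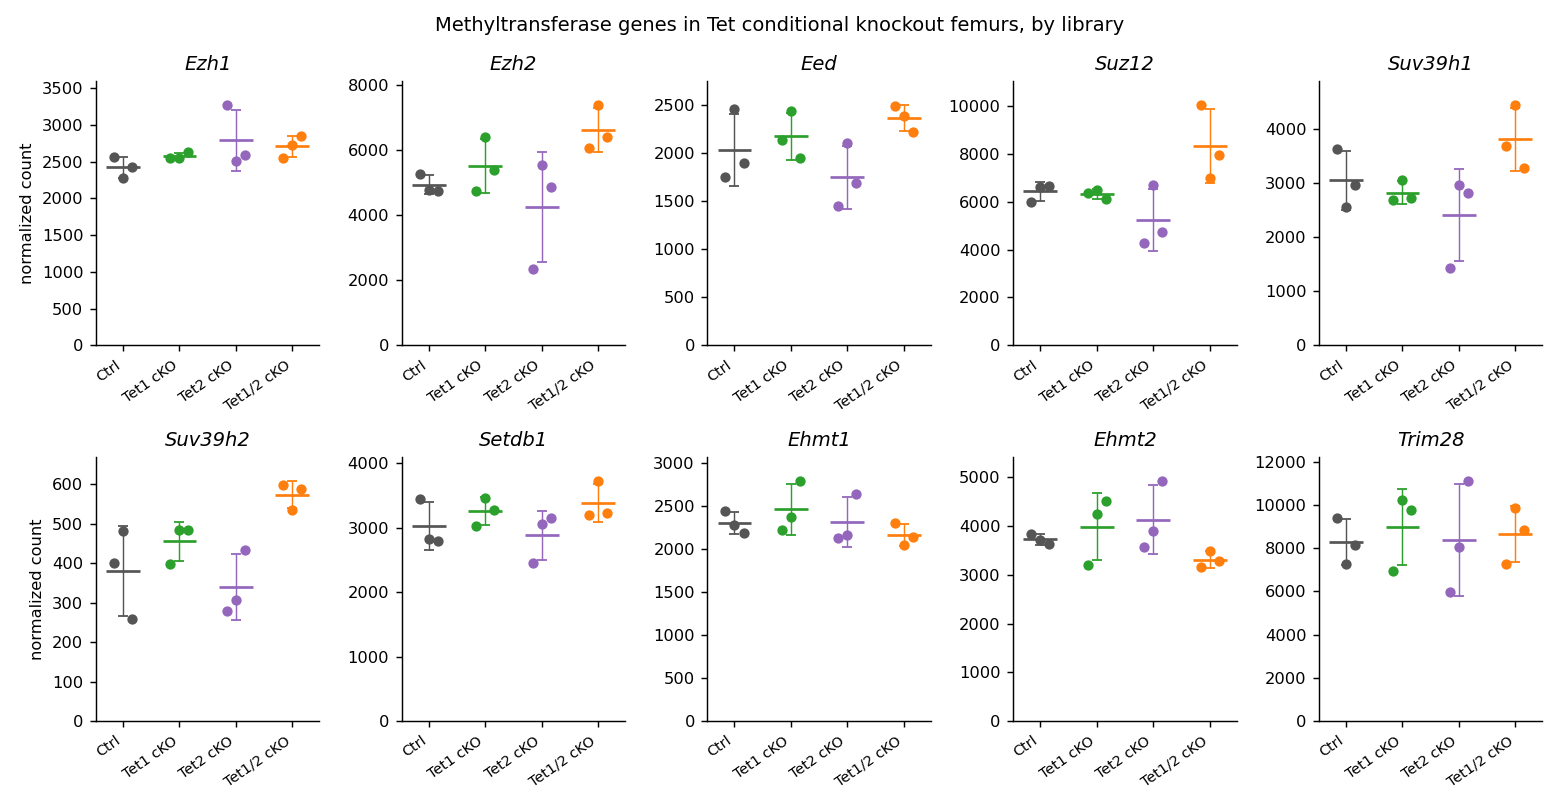
Normalized counts of the 10 genes in each of the 12 femur libraries of the Tet experiment; points are libraries, horizontal bars group means and whiskers 1 SD. Tet1/2 cKO lies above Ctrl without overlap for Ezh2, Suz12 and Suv39h2, and 1 Tet2 cKO library is low for Ezh2 (2348) and Suv39h1 (1430).

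The genes most like each member were sought by Pearson's r over the 21 femur libraries, on log2 values centred within each experiment, among 11191 genes. Libraries that share a depth and a cell makeup share these patterns, so they are a description. Ezh2 was most like Tifab (0.934), Klrb1f (0.932), Tnfsf14 (0.923), Ptgr1 (0.922) and Cpsf2 (0.921). Suz12 was most like Hells (0.942), a chromatin remodeller of the SNF2 family, and Suv39h1 most like Wdhd1 (0.946), a replication factor. The nearest gene was Zfp207 for Eed (0.919), Txnip for Ezh1 (0.833), Rbm12 for Suv39h2 (0.898) and Wdr3 for Setdb1 (0.884). It was Phf2 for Ehmt1 (0.875), Neurl4 for Ehmt2 (0.888) and Tmem39b for Trim28 (0.894).

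5hmC was counted as peaks within 30 kb of each start. Every group had 1 peak list with no replicates, so counts carry no test. The lists held 399599 peaks in VitC+/- and 371568 in VitC+. In femurs of VitC+/- and VitC+ mice Ezh2 had 15 and 13 peaks and Suz12 15 and 14, whereas Eed had 11 and 16 and Ehmt1 12 and 15. The 9 members on chromosomes that the lists cover, Suv39h1 on the X being not analysed here, had 79 peaks in VitC+/- and 92 in VitC+. Of these, 2 had more, 6 fewer and 1 as many. By peak count, with 1 added to each count, the median log2 ratio of the members was -0.30, against 0.00 over 20558 genes. Ezh2, the member that fell in RNA, had a count of 5hmC peaks within 2 of that with VitC, but a count does not measure signal. The top fold enrichment among the peaks in its gene body was 11.7 in VitC+/- and 15.05 in VitC+.

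In Tet1/2 cKO femurs the members had 30 peaks against 75 in Ctrl. Ezh2 had 0 against 6, Eed 0 against 9 and Suz12 0 against 5, so no peak was listed near any PRC2 core gene, and Ezh1 had 3 against 7. Of the H3K9 genes and their corepressor, Ehmt1 had 12 against 17, Ehmt2 8 against 16, Trim28 6 against 10 and Suv39h2 1 against 5, while Setdb1 and Suv39h1 had none in either list. The median log2 ratio of peak counts (1 added) was -0.96 over the members and -0.68 over 21774 genes. The lists held 146626 peaks in Tet1/2 cKO and 259326 in Ctrl. A ratio of counts as low as that of Eed was found in 0.156% of genes, of Ezh2 in 0.799% and of Suz12 in 1.51%. With 0 peaks in Tet1/2 cKO, each of these ratios rests on the Ctrl count alone. In Ctrl the top fold enrichment in the gene body was 3.69 for Eed, 5.93 for Ezh2 and 2.89 for Suz12, beside a median of 3.45 over the Ctrl list. The RNA of these 3 genes did not pass the test in the same genotype.

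The Ezh2 stretch printed above was chosen for its lack of a Tet1/2 cKO peak, so that contrast adds nothing here. Its Ctrl peak was overlapped by 2 peaks in VitC+ femurs (fold enrichment up to 15.05) and by 1 in VitC+/- femurs (11.7). It was overlapped by 2 peaks in MC3T3-E1 cells with VitC (up to 9.50) and by none in those cells without VitC.

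In MC3T3-E1 cells without VitC the members had 53 5hmC peaks, against 83 with VitC, in lists of 288862 and 257696 peaks. Ezh2 had 4 and 8, Ezh1 9 and 16, Eed 3 and 6, Suz12 4 and 7, Ehmt1 9 and 20 and Ehmt2 10 and 16. Setdb1 (6 and 3) and Suv39h1 (3 and 0) had more without VitC. The median log2 ratio of peak counts (1 added) was -0.65 for the members and -0.17 over all genes. Peaks that touched a promoter as defined above were found for Ezh1 (chr11:101226643-101227228, fold enrichment 11.3, -log10 q 35.8) and Trim28 (chr7:13023405-13023958, 3.91 and 5.47), both in cells with VitC.

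**Figure D5:**
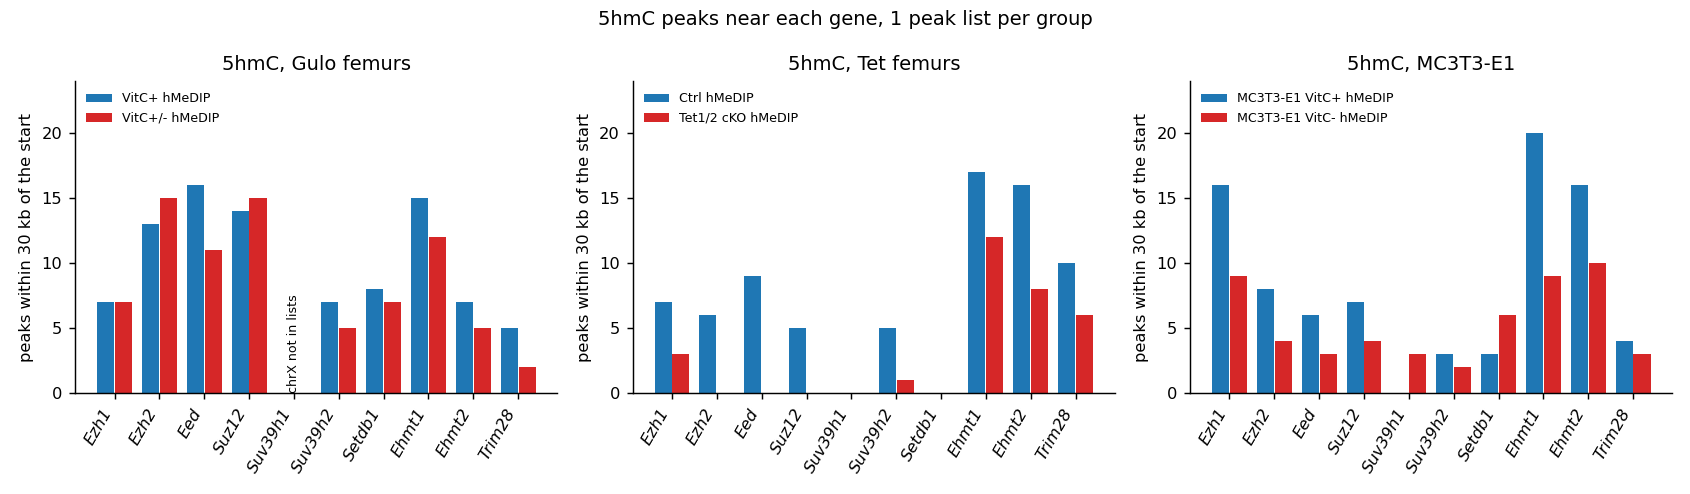
Number of 5hmC peaks within 30 kb of the start of each gene, in 1 list per group without replicates; blue bars are VitC+ or Ctrl lists and red bars VitC+/-, Tet1/2 cKO or VitC- lists. Ezh2, Eed and Suz12 have 0 peaks in Tet1/2 cKO femurs, whereas Ezh2 has 15 in VitC+/- and 13 in VitC+ femurs.

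The marks that the members place were also listed near the members' own genes in MC3T3-E1 cells. Within 30 kb of the starts, H3K27me3 peaks numbered 29 without VitC and 21 with it. They lay near Suz12 (8 and 5), Ezh2 (7 and 6), Ehmt1 (6 and 3), Trim28 (4 and 2), Ezh1 (2 and 3) and Ehmt2 (2 and 2). H3K9me3 peaks in the same windows numbered 8 and 3, of which Setdb1, itself an H3K9 methyltransferase gene, had 5 and 1. No H3K27me3 peak of either list lay inside the gene body of any member. For H3K9me3 the gene bodies held 1 peak, of 345 bases, in Ezh2 without VitC. The median log2 ratio of peak counts (1 added) was 0 over the members and over all genes for both marks. H3K27me3 covered more bases without VitC than with it near Ehmt1 (15194 and 9593), Suz12 (13556 and 12636) and Ezh2 (7933 and 4371). The same held for Ehmt2 (7771 and 3500), Ezh1 (4926 and 2272) and Trim28 (3555 and 2290), but not for Setdb1 (519 and 914). The whole H3K27me3 lists covered 233406224 and 144741557 bases.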

How the data were processed

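Gene values of 21 femur RNA-seq libraries and 10 peak lists were analysed, in the groups given by the labels. The authors deposited RPKM for the VitC libraries, after alignment to mm10 with STAR 2.6.0b-1 (the methods name cufflinks for FPKM, and do not say whether it made the RPKM column). The Tet table holds a signal deposited as counts from featureCounts 1.6.3 divided by DESeq2 size factors. The peak lists deposited by the authors (BWA 0.7.15.1, MACS2) give fold enrichment, a ratio, and -log10 q. 5hmC replicates had been pooled, the histone lists (broad peaks) do not say, and day 28 of the labels stands against another day in the methods. RPKM were scaled between libraries (median of ratios to the geometric mean of each gene) and tested as log2(value + 0.5) for genes at 1 or more in 3 libraries, and Tet counts as log2(value + 1) at 10 or more, with limma 3.58.1 (R 4.3.3, all groups of an experiment in 1 fit, Benjamini-Hochberg, threshold 0.05). Depths were read from the steps of low values, near whole for 92.3% to 93.4% of these in the VitC tables. Whole reads recovered from 11 of 12 Tet libraries went to edgeR 4.0.16 and DESeq2 1.42.0. Tet1 cKO 3 was left out because its value of 1 read, 1.004, was close to 1, although its values also resolved into whole reads. Replicates are separate animals per the methods. The r of deviations was -0.19 to 0.46 (VitC) and -0.57 to 0.53 (Tet) for same-numbered libraries of different groups. For libraries of other numbers it was -0.37 to 0.42 and -0.62 to 0.55. These ranges overlapped, so no pairing was used, but they cannot exclude a relation. Sequences came from RefSeq, where every member matched. Members, gene lists and marker lists were chosen with earlier results of these data known. All members are named, called genes of each pathway list up to 4 by size, and 5 genes of like pattern for Ezh2 and 1 for every other member. Genes whose near-identical copies share reads were not separated. Alternatives were other scalings, pseudocounts, no filter, 2 groups only, a replicate block, leaving out libraries, and for peaks a 10 kb window and a -log10 q of 5.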

Additional observations from a re-analysis of the deposited data

How the results depend on the processing

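No result changed direction past its threshold. Ezh2 in VitC+/- against VitC+ lost its call with RPKM as deposited (-0.74, adjusted p = 0.148, limma), without a filter (-0.86, 0.0586), with 2 groups only (-0.86, 0.0504) and without the libraries labelled WT 3 and VitC+ 1 (-1.02, 0.0842; chosen after seeing the data), and ran from -1.02 to -0.63 with single libraries left out. The members called there were then 0 under those 4 settings and 0 to 1 with single libraries left out. Deposited RPKM moved the median of all genes from 0.02 to 0.13. Ezh2 against WT kept its call throughout (single libraries left out: -1.52 to -1.17). A replicate block left every call on a member as it was (Ezh2 against VitC+: -0.86, adjusted p = 0.0122).

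Genes called in VitC+/- against VitC+ numbered 876 with deposited RPKM, 253 without the libraries labelled WT 3 and VitC+ 1 and 487 to 1306 with single libraries left out, of 1692 (692, 490 and 573 without VitC+ 1, 2 and 3, 487 without VitC+/- 1). Against WT they numbered 1649 without both and 2274 to 4113, of 3934 (2274 without WT 3, 2394 without VitC+/- 1). WT against VitC+ gave 774 with the replicate block and 0 to 604, the last without WT 1. Tet1 cKO gave 0 with edgeR and the block, 13 with DESeq2 and 0 to 4 with single libraries left out (4 without Tet1 cKO 2, 0 without Ctrl 1, Ctrl 3, Tet1 cKO 1 or Tet1 cKO 3), of 2. Tet2 cKO gave 1 with edgeR, 14 with DESeq2, 0 with the block and with 2 groups only, and 0 to 4 (4 without Tet2 cKO 3, 0 without any Ctrl library or Tet2 cKO 2), of 2. Tet1/2 cKO gave 13 with DESeq2. With 3 libraries a group, the intervals of most members span 0.5 or more on the log2 scale, and peak lists carry no error.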
